A study of Mus musculus with 6 samples.

Results

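The 9 genes described here encode matrix metalloproteinases, the urokinase branch of the plasminogen system and inhibitors of the metalloproteinases. They were taken by gene symbol from the 56691 genes of the deposited table, which listed all 9: Mmp3, Mmp9, Mmp10, Mmp13, Mmp14, Plau, Plaur, Timp1 and Timp3. RNA was measured in 4T1 cells, a mouse mammary carcinoma line grown in culture, after 4 h with vehicle (3 libraries) or with KIRA6 at 1 µmol/L (3 libraries). Both groups were the same line, plated overnight and given fresh medium with vehicle or compound, and no genetic change was named. KIRA6 is an inhibitor of IRE1α, an endoplasmic reticulum protein that senses unfolded proteins, and acts through the kinase part of that enzyme to reduce its RNase activity. The comparison asks how RNA of the tumour cells themselves differed after KIRA6. Whether libraries of 1 group were separate cultures is not stated in the labels, and the p-values therefore reflect a spread that may be technical.

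Matrix metalloproteinases are zinc enzymes that cut collagens, proteoglycans and other proteins outside the cell. Most are secreted as inactive zymogens and are blocked by tissue inhibitors of metalloproteinases, the TIMPs. Urokinase, bound to its receptor at the cell surface, cuts plasminogen to plasmin, a protease that dissolves fibrin and can activate several metalloproteinase zymogens. Carcinoma cells are known to use both systems when they invade, and several of these genes are textbook targets of the transcription factor AP-1 and of ETS factors downstream of growth factor signalling.

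Because AP-1 is the best-known regulator of these genes, the bases just before their start sites are shown first. RefSeq promoters of build GRCm38.p6 were held for 7 of the 9 genes, all but Mmp9 and Plau. Each window ran from 250 bases before to 50 bases after the start, and the 120 bases directly before the start are printed 5′ to 3′ on the strand of the gene, with the AP-1 letters TGANTCA in capitals. The first 4 hold the letters and the last, Mmp14, does not. The promoters of Timp1 and Timp3 are not printed. They do not hold the letters either. Timp1 RNA was called lower with KIRA6, and the part of these letters in any RNA difference was not tested.
Mmp3 (chr9:7445702-7445821, plus strand): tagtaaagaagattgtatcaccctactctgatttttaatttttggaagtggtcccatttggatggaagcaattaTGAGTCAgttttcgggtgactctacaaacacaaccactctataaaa
Mmp10 (chr9:7502222-7502341, plus strand): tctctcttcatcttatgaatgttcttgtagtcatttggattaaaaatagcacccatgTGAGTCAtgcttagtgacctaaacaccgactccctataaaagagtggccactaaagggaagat
Mmp13 (chr9:7272394-7272513, plus strand): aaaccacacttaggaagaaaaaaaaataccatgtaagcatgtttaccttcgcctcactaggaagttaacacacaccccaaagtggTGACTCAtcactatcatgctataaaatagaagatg
Plaur (chr7:24462363-24462482, plus strand): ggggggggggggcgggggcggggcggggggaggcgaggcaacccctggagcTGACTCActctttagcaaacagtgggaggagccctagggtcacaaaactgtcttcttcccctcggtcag
Mmp14 (chr14:54431478-54431597, plus strand): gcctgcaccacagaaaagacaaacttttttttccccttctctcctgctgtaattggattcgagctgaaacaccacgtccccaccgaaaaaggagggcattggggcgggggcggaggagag

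The AP-1 letters began 46 bases before the start of Mmp3, 63 before that of Mmp10, 35 before that of Mmp13 and 69 before that of Plaur. They were in the windows of 4 of the 7 genes and in 7.81% of all 32851 promoter windows of the same length. The windows of Mmp14, Timp1 and Timp3 did not hold these letters. The PEA3 letters AGGAAG, read on both strands, were in the windows of 6 of the 7 genes and in 35.4% of all windows. Mmp10 was the gene without them. The RUNX letters ACCACA were in the windows of Mmp13 and Mmp14 and in 16.8% of all windows. No match overlapped one of another motif. A match describes letters only, and no binding was measured.

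The libraries held an estimated 16498450 to 21347650 fragments assigned to genes. Between 16474 and 16843 genes were above 0 in the vehicle libraries and between 17801 and 18060 in the KIRA6 libraries. The share of fragments from mitochondrial genes was 1.75% to 2.03% in vehicle and 2.66% to 3.25% with KIRA6, and the part of either difference in the results was not tested. Within the groups the libraries differed along 1 shared axis, which took 81.3% of the within-group variance and set Vehicle replicate 3 and KIRA6 replicate 1 at its opposite ends. All 9 epithelial markers were detected and 5 were called higher with KIRA6, beside 15.6% of all tested genes. Epcam was among them, at 36.04 to 42.2 FPKM in vehicle and 63.8 to 66.9 FPKM with KIRA6. Larger rises were those of Krt14, from a mean of 22.9 to 162.1 FPKM, and Krt19, from 22.4 to 110.5 FPKM. Cldn4 and Esrp1 were called higher too. Cdh1, Krt7, Krt8 and Krt18 were not called. Krt18 went the other way, at 574.1 to 631.2 FPKM in vehicle and 473.3 to 544.9 FPKM with KIRA6. The 10 fibroblast markers summed to 0.58 to 0.83 FPKM in vehicle and 2.23 to 4.19 FPKM with KIRA6, and Lum was at 0 in all libraries. Pdgfra had 0.39 to 0.71 FPKM of this in vehicle and 1.8 to 3.69 with KIRA6, and Postn had 0.06 to 0.18 and 0.31 to 0.37 FPKM. Pdgfra was the 1 fibroblast marker tested, and it was called higher. The 11 macrophage and neutrophil markers summed to 1.84 to 3.12 and 4.21 to 4.54 FPKM, mostly Cd68, while Adgre1 was at 0 and Ptprc at no more than 0.01. The 6 endothelial markers summed to no more than 0.07 FPKM in any library. The part of these markers in the results was not tested. In bulk RNA, fewer cells of a type and less RNA per cell cannot be told apart.

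FPKM corrects fragment numbers for the exonic length of each gene and for library size, so levels of different genes can be set side by side. In vehicle the order of the means was Plaur, Timp1, Mmp3, Plau, Mmp14, Mmp10, Mmp9, Mmp13 and Timp3. The libraries of Timp1 and Mmp3, of Mmp3 and Plau, and of Mmp10 and Mmp9 overlapped, so those neighbours in the order were not separated. With KIRA6 the order was Mmp14, Timp1, Plau, Plaur, Mmp3, Mmp9, Mmp10, Mmp13 and Timp3. Here Mmp14 and Timp1, Plaur and Mmp3, and Mmp13 and Timp3 overlapped. Plaur led the order in vehicle, and Mmp14 led it with KIRA6.

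**Figure D1:**
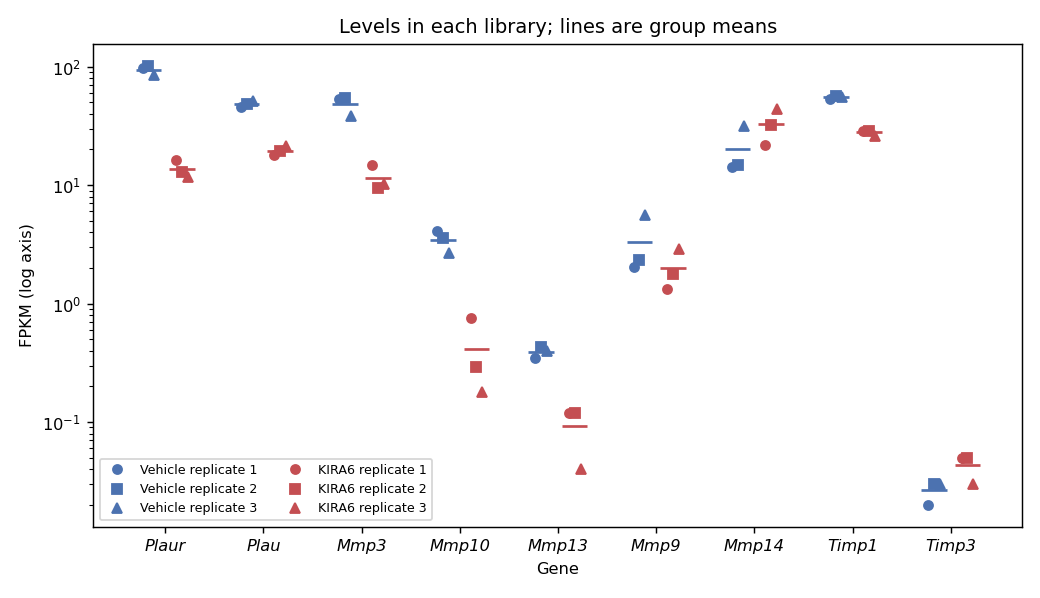
FPKM (log axis) of the 9 genes in each of the 6 libraries, vehicle in blue and KIRA6 in red, with the replicate number as the symbol and the group mean as a line. The groups are separate for Plaur, Plau, Mmp3, Mmp10, Mmp13 and Timp1, and overlap for Mmp9, Mmp14 and Timp3.

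Of the 9 genes 5 fell with KIRA6 and 0 rose. Those that fell were the urokinase receptor gene Plaur, the urokinase gene Plau, the stromelysin genes Mmp3 and Mmp10, and the inhibitor gene Timp1. The test was limma on log2(FPKM + 0.5) over the 11778 genes whose mean reached 0.5 FPKM, with Benjamini-Hochberg adjusted p below 0.05 as the call. It called 7.98% of all tested genes lower, 15.6% higher and 23.6% in either direction. Of the 9 genes 7 were tested, and Mmp13 and Timp3 lay below the filter. None rose at an unadjusted p under 0.05 either, and limma-voom on estimated fragments called 0 higher. The median log2 fold change of the 7 was −1.29, beside 0.16 over all tested genes. Median-ratio scaling of the libraries moved the median of all genes to −0.04 and the share of higher calls among all calls from 66.2% to 44.0%. Plaur, Plau, Mmp3, Mmp10 and Timp1 were called lower with it too. Quantile normalization gave a share of 48.9%. The groups did not overlap for 5 of the 7 genes, against 41.8% of all tested genes.

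**Figure D2:**
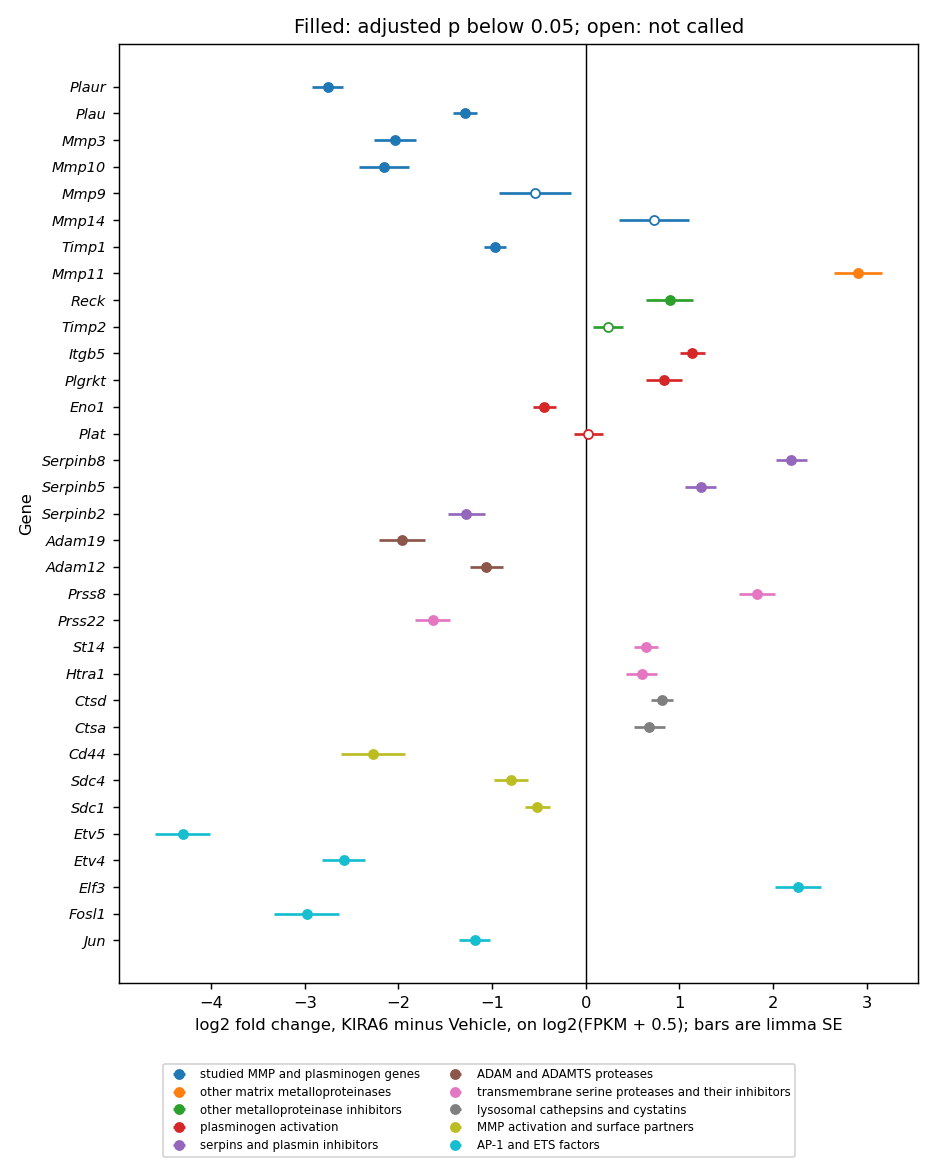
Log2 fold change (KIRA6 minus vehicle, on the log2(FPKM + 0.5) scale) with its limma standard error for the 7 tested genes and for the named genes of the related lists. Filled points had an adjusted p below 0.05. On this scale Plaur lies farthest to the left of the 7, and Mmp14 alone lies to the right of 0, as an open point.

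Plaur (ENSMUSG00000046223, chromosome 7, 24161909 to 24175393 on GRCm39) encodes the urokinase receptor, which is anchored to the outer membrane by a lipid tail. It was at 97.1, 101.44 and 84.2 FPKM in the vehicle libraries and at 16.3, 12.8 and 11.8 FPKM in the KIRA6 libraries. The lowest vehicle library lay far above the highest KIRA6 library. The mean fell from 94.3 ± 8.96 to 13.6 ± 2.37 FPKM (SD, n = 3 each), which is 6.92-fold lower, with a log2 fold change of −2.75 ± 0.16 (SE) and a limma adjusted p of 0.000478. Only 13 of the 11778 tested genes had a lower log2 fold change.

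Plau (ENSMUSG00000021822, chromosome 14, 20886728 to 20893453) encodes urokinase itself. Its vehicle libraries were at 45.5, 48.7 and 51.3 FPKM and its KIRA6 libraries at 17.97, 19.6 and 21.3 FPKM, with a narrow spread in both groups and a wide gap between them. The mean fell from 48.5 ± 2.91 to 19.6 ± 1.65 FPKM (SD, n = 3), 2.47-fold lower, with a log2 fold change of −1.29 ± 0.13 (SE, limma adjusted p = 0.001512).

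Ligand and receptor did not change by the same factor. The ratio of Plaur to Plau was 2.13, 2.08 and 1.64 in the vehicle libraries and 0.907, 0.654 and 0.554 in the KIRA6 libraries. The receptor transcript exceeded the ligand transcript in every vehicle library and was below it in every KIRA6 library. An exact two-sided permutation test of the log2 ratio gave p = 0.1, the smallest that 3 against 3 libraries allow, and 0.16 after Benjamini-Hochberg adjustment over the 8 ratios and sums tested in this way.

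**Figure D3:**
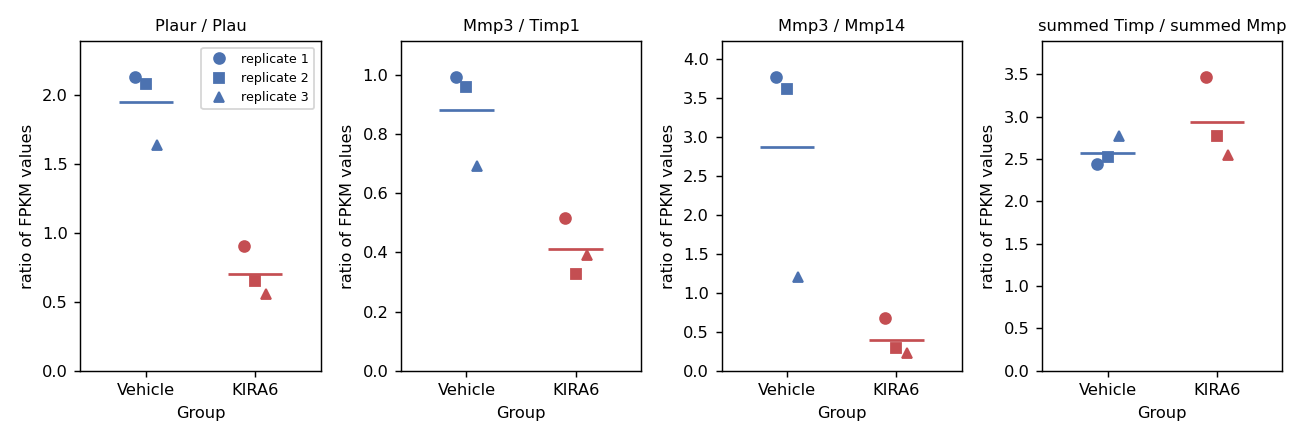
Ratios of FPKM values in each library (linear axes from 0; lines are group means; symbols give the replicate). The ratios of Plaur to Plau, Mmp3 to Timp1 and Mmp3 to Mmp14 are lower in all 3 KIRA6 libraries than in any vehicle library, and the ratio of summed Timp to summed Mmp transcripts overlaps between the groups.

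The other genes of plasminogen activation did not share one direction. Plasminogen itself (Plg) was at 0 in all 6 libraries, and Plat, the tissue-type activator, had 0.697 ± 0.117 FPKM in vehicle and 0.72 ± 0.101 with KIRA6 (limma adjusted p = 0.9201). Of the 9 tested genes in a list of 12 for plasminogen activation and binding, 2 rose and 1 fell, with a median log2 fold change of 0.03. Over all tested genes 15.6% were called higher and 7.98% lower. The integrin subunit gene Itgb5 rose from 18.2 ± 1.89 to 40.5 ± 2.9 FPKM (limma adjusted p = 0.00266), and Plgrkt, a plasminogen receptor gene, from 4.26 ± 0.932 to 7.9 ± 0.996 FPKM (0.02375). Eno1, an enolase gene whose product can bind plasminogen at the cell surface, fell from 350.5 ± 10.2 to 257.7 ± 10.7 FPKM (0.04296). The limma call for Plgrkt did not hold when Vehicle replicate 2 (adjusted p = 0.07914) or KIRA6 replicate 1 (0.06426), 2 (0.08952) or 3 (0.05586) was left out. That for Eno1 ended without any 1 library, at 0.1169, 0.1743 and 0.05462 without Vehicle replicates 1 to 3 and 0.0721, 0.1574 and 0.09913 without KIRA6 replicates 1 to 3. Plgrkt also lost its call with median-ratio scaling (0.06383).

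Among 6 tested serpins and plasmin inhibitors 2 rose and 1 fell, with a median log2 fold change of −0.11. The shares over all tested genes were 15.6% higher and 7.98% lower. Serpinb2, which encodes PAI-2, an inhibitor of urokinase, fell from 1.15 ± 0.352 to 0.173 ± 0.0569 FPKM (limma adjusted p = 0.006294). Serpinb8 rose from 0.253 ± 0.0379 to 2.98 ± 0.499 FPKM (0.000724) and Serpinb5, which encodes maspin, from 2.72 ± 0.146 to 7.09 ± 1.17 FPKM (0.003664). Serpinb2 had an estimated 5 to 11 fragments per KIRA6 library and Serpinb8 18 to 25 per vehicle library. At a filter of 1 FPKM Serpinb2 was not tested.

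Mmp3 (ENSMUSG00000043613, chromosome 9, 7445822 to 7455975) encodes stromelysin-1, a secreted enzyme with a broad range of matrix substrates that can also activate other metalloproteinase zymogens. It was at 53.4, 53.9 and 38.3 FPKM in vehicle and at 14.9, 9.39 and 10.3 FPKM with KIRA6. Vehicle replicate 3 was the lowest of its group and KIRA6 replicate 1 the highest of its own, and the groups still lay apart. The mean fell from 48.5 ± 8.88 to 11.5 ± 2.96 FPKM (SD, n = 3), 4.21-fold lower, with a log2 fold change of −2.04 ± 0.22 (SE, limma adjusted p = 0.001983).

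Mmp10 (ENSMUSG00000047562, chromosome 9, 7502353 to 7510241) encodes stromelysin-2, the closest relative of Mmp3 in substrate range. It was at 4.12, 3.56 and 2.69 FPKM in vehicle and at 0.76, 0.29 and 0.18 FPKM with KIRA6, so the lowest vehicle library was above the highest KIRA6 library. These levels rest on an estimated 86 to 129 fragments per vehicle library and 6 to 28 per KIRA6 library. The ratio of the means was 8.43-fold lower with KIRA6, while the log2 fold change of −2.16 ± 0.27 (SE, limma adjusted p = 0.003008) is damped by the pseudocount of 0.5. At a pseudocount of 0.1 it was −2.95, and limma-voom on estimated fragments gave −3.24. Mmp3 and Mmp10 are related in sequence, and how the authors' counting treated fragments that fit both is not given in the sources used here.

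Mmp13 (ENSMUSG00000050578, chromosome 9, 7272514 to 7283331), the collagenase-3 gene, was low, at 0.35, 0.43 and 0.4 FPKM in vehicle and 0.12, 0.12 and 0.04 FPKM with KIRA6. This is an estimated 17, 19 and 20 fragments in vehicle and 7, 6 and 2 with KIRA6. The groups did not overlap, but the mean was under the filter, so the gene had no place in the main test. A fit of all 22295 genes above 0 in at least 1 library gave a log2 fold change of −0.59 ± 0.12 (SE, limma adjusted p = 0.02903), a value that the pseudocount holds near 0 at so low a level. The ratio of the means was 4.21-fold.

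These 3 genes lie in a cluster of 10 Mmp genes on chromosome 9, which spans 427073 bases from 7272514 to 7699586 on GRCm39. In the order of the chromosome it runs Mmp13, Mmp12, Mmp1b, Mmp3, Mmp1a, Mmp10, Mmp8, Mmp27, Mmp20 and Mmp7. Mmp7 and Mmp8 were at 0 in all libraries, and 8 of the 10 genes had a mean under 0.5 FPKM, all but Mmp3 and Mmp10. Mmp1b was at 0.53, 0.88 and 0.11 FPKM in vehicle and was listed at 0 in all 3 KIRA6 libraries, where a count of 0 allows up to 3 fragments, which is 0.097 to 0.125 FPKM over the 6 libraries. Vehicle replicate 3 of Mmp1b lies within that limit, so its groups are not shown to be separate. Mmp1a was at 0.27, 0.03 and 0.11 FPKM in vehicle and 0.02, 0.03 and 0.03 with KIRA6. Vehicle replicate 1, at an estimated 10 fragments, was above its limit of 0.0698 to 0.0904 FPKM, and the other libraries were near or below it. Mmp1a is a close copy of Mmp1b, so the split between those 2 genes is uncertain. Mmp13, Mmp3 and Mmp10 had every vehicle library above every KIRA6 library, which held for 14.1% of all tested genes. The expressed genes on either side of the cluster were Dcun1d5, at 77.9, 73.4 and 41.6 FPKM in vehicle and 40.08, 30.04 and 28.4 with KIRA6, and Tmem123, at 66.01, 62 and 40.8 FPKM in vehicle and 52.1, 45.8 and 47.6 with KIRA6. Their groups lay apart for Dcun1d5 by 1.52 FPKM and overlapped for Tmem123.

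Mmp9 (ENSMUSG00000017737, chromosome 2, 164782700 to 164797770) encodes gelatinase B, which cuts denatured collagen and type IV collagen. It was at 2.02, 2.33 and 5.55 FPKM in vehicle and at 1.32, 1.77 and 2.88 FPKM with KIRA6. The groups overlapped, with Vehicle replicate 3 far above the other libraries of its group. The means were 3.3 ± 1.95 and 1.99 ± 0.803 FPKM (SD, n = 3), and the log2 fold change of −0.54 ± 0.39 (SE) was within the spread between libraries (limma adjusted p = 0.3569). It was −0.15 without Vehicle replicate 3, and 0.05 without that library and KIRA6 replicate 1 together.

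Mmp14 (ENSMUSG00000000957, chromosome 14, 54669069 to 54682821) encodes MT1-MMP, a membrane-bound collagenase known for activating the zymogen of MMP2 at the cell surface. It was at 14.2, 14.9 and 31.7 FPKM in vehicle and at 21.99, 32.3 and 44.2 FPKM with KIRA6. Vehicle replicate 3 lay within the KIRA6 range, so the groups overlapped. The means were 20.2 ± 9.9 and 32.8 ± 11.1 FPKM (SD, n = 3), with a log2 fold change of 0.73 ± 0.38 (SE, limma adjusted p = 0.2097). Without Vehicle replicate 3 the log2 fold change was 1.09 and was called (limma adjusted p = 0.03237), and without that library and KIRA6 replicate 1 together it was 1.35 (0.000252). Mmp14 followed the shared within-group axis, which held 96.7% of its variance within groups, against 90.9% for Mmp9 and 9.89% for Timp1. The called genes Mmp3, Mmp10, Plaur and Plau were at 88.6%, 85.0%, 83.2% and 78.2%. The part of the axis in these results was not tested. A further gene model, ENSMUSG00000120849, lies inside Mmp14 on the same strand and had 0.61 to 2.36 FPKM. Mmp2, the substrate named above, was at 0 to 0.03 FPKM in vehicle and 0.03 to 0.08 FPKM with KIRA6.

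Of the 18 Mmp genes outside the 9, 16 were below the filter and 2 were tested, of which 1 rose. Over all tested genes 15.6% were called higher and 7.98% lower, and 2 tested genes are too few to compare with these shares. Mmp11 (chromosome 10, 75759056 to 75772330) encodes stromelysin-3, which, unlike most secreted family members, is activated inside the cell by furin. It was at 1.7, 2.12 and 3.29 FPKM in vehicle and at 15.8, 23.4 and 23.3 FPKM with KIRA6, with no overlap. The mean rose from 2.37 ± 0.824 to 20.8 ± 4.35 FPKM (SD, n = 3), 8.79-fold higher, with a log2 fold change of 2.91 ± 0.26 (SE, limma adjusted p = 0.001096). Only 8 tested genes had a higher log2 fold change. Mmp15, a membrane-bound relative of Mmp14, was at 0.18, 0.24 and 1.73 FPKM in vehicle and 0.47, 4.17 and 5.36 FPKM with KIRA6, and was not called (0.2055). It was called higher in 4 of the 18 alternative settings.

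The makeup of the metalloproteinase transcripts differed between the groups, while their sum overlapped. Summed over the 23 Mmp genes of the table, the level was 76.99, 78.9 and 84.3 FPKM in vehicle and 56.06, 72.2 and 87.05 FPKM with KIRA6 (exact permutation p = 0.5). Mmp3 made up 69.3%, 68.3% and 45.4% of that sum in vehicle and 26.6%, 13% and 11.8% with KIRA6. Mmp14 made up 18.4%, 18.9% and 37.6% in vehicle and 39.2%, 44.7% and 50.7% with KIRA6. Mmp11 went from 2.21%, 2.69% and 3.9% to 28.2%, 32.4% and 26.7%. Mmp3 led in all 3 vehicle libraries and Mmp14 led in all 3 KIRA6 libraries, with Mmp11 ahead of Mmp3 there. Vehicle replicate 3 was the vehicle library with the smallest lead of Mmp3, at a ratio to Mmp14 of 1.21 beside 3.77 and 3.62, and the KIRA6 libraries were at 0.678, 0.291 and 0.233 (exact permutation p = 0.1).

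**Figure D4:**
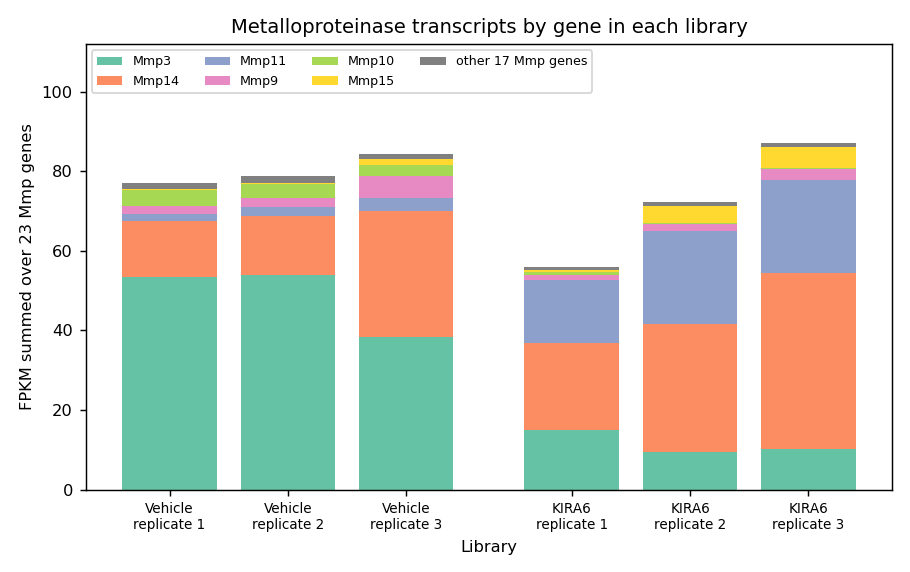
FPKM summed over 23 Mmp genes in each library, stacked by gene from 0. Mmp3 is the largest block in the 3 vehicle libraries, and Mmp14 and Mmp11 are the largest in the 3 KIRA6 libraries, while the totals of the groups overlap.

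Timp1 (ENSMUSG00000001131, chromosome X, 20736405 to 20740974) encodes a secreted inhibitor that blocks most metalloproteinases, MT1-MMP being an exception. It was at 53.7, 56.2 and 55.4 FPKM in vehicle and at 28.9, 28.6 and 26.2 FPKM with KIRA6, the tightest of the 9 genes in both groups relative to its level. The mean fell from 55.1 ± 1.3 to 27.9 ± 1.48 FPKM (SD, n = 3), 1.98-fold lower, with a log2 fold change of −0.97 ± 0.12 (SE, limma adjusted p = 0.002682). Timp1 lies on the opposite strand within Syn1, which had 0 to 0.05 FPKM. No source used here gives the strand setting of the counting. The protease Mmp3 went down further than the inhibitor: the ratio of Mmp3 to Timp1 was 0.994, 0.959 and 0.691 in vehicle and 0.516, 0.329 and 0.393 with KIRA6, with no overlap (exact permutation p = 0.1, the smallest possible).

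Timp3 (ENSMUSG00000020044, chromosome 10, 86136236 to 86185370), whose product binds to the matrix, was barely detected. It was at 0.02, 0.03 and 0.03 FPKM in vehicle and 0.05, 0.05 and 0.03 with KIRA6, an estimated 3, 4 and 5 fragments against 9, 7 and 5. These values overlap and lie close to the limit of 3 fragments, so no difference was detectable at this depth. Timp3 lies within Syn3 on the opposite strand, and Syn3 was as low, at 0.01 to 0.04 FPKM.

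The most abundant inhibitor was Timp2, which helps to present the MMP2 zymogen to MT1-MMP. It was at 133.8, 142.5 and 178.1 FPKM in vehicle and at 165.7, 171.5 and 195.8 FPKM with KIRA6, and was not called (log2 fold change 0.24 ± 0.16, SE, limma adjusted p = 0.3355). The sum of Timp1 to Timp4 was 206.6 ± 24 FPKM in vehicle and 205.6 ± 14.5 with KIRA6 (SD, n = 3, exact permutation p = 1). Timp1 was 28.6%, 28.3% and 23.7% of that sum in vehicle and 14.8%, 14.3% and 11.8% with KIRA6. The ratio of summed Timp to summed Mmp transcripts was 2.44, 2.52 and 2.77 in vehicle and 3.47, 2.77 and 2.55 with KIRA6, and the groups overlapped (exact permutation p = 0.2). Among 6 further inhibitors 2 were tested, too few to compare with the 15.6% higher and 7.98% lower over all tested genes. Reck, a membrane-anchored inhibitor, was the called gene of those 2. It rose from 0.637 ± 0.17 to 1.67 ± 0.637 FPKM (limma adjusted p = 0.04304), a call that was lost under median-ratio scaling (0.0652). It was also lost when Vehicle replicate 1 (0.1048) or 2 (0.1432), or KIRA6 replicate 2 (0.1324) or 3 (0.1124), was left out.

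Proteases that work beside these systems were called in both directions, as were all tested genes, at 15.6% higher and 7.98% lower. Of 9 tested ADAM and ADAMTS genes 2 fell and 0 rose by limma (median log2 fold change −0.01), and those 2 were genes of membrane-bound ADAM proteases. At an unadjusted p under 0.05 there was 1 higher, and limma-voom called 0 higher. Adam19 fell from 7.43 ± 2.43 to 1.49 ± 0.313 FPKM (limma adjusted p = 0.002945) and Adam12 from 2.02 ± 0.187 to 0.717 ± 0.206 FPKM (0.007355). The numbers called higher were 2 without Vehicle replicate 3 and 2 without KIRA6 replicate 1. Of 9 tested transmembrane and related serine proteases with their inhibitors 3 rose and 1 fell, with a median log2 fold change of 0.24. Prss8, the prostasin gene, rose from 2.79 ± 0.238 to 11.4 ± 2.52 FPKM (0.001819) and St14, the matriptase gene, from 16.4 ± 1.48 to 25.9 ± 1.41 FPKM (0.01431). Htra1 rose from 124.9 ± 20.02 to 187.97 ± 17.4 FPKM (0.04309), and Prss22 fell from 6.92 ± 1.42 to 1.87 ± 0.268 FPKM (0.002338). Of the 3, Prss8 alone was called when Vehicle replicate 1 or 2, or KIRA6 replicate 2 or 3, was left out, where St14 had 0.06298, 0.07181, 0.06575 and 0.05303 and Htra1 had 0.1408, 0.1438, 0.143 and 0.125. Htra1 also lost its call without KIRA6 replicate 1 (0.05748), and median-ratio scaling ended both calls (St14 0.05743, Htra1 0.1628).

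Of 10 tested cathepsins and cystatins, which are mostly lysosomal proteases and their inhibitors, 2 rose and 0 fell by limma (median log2 fold change 0.24). The share called higher over all tested genes was 15.6%, and 7.98% were called lower. At an unadjusted p under 0.05 there was 1 lower, and limma-voom called 0 lower. Cathepsin D (Ctsd) rose from 75.8 ± 1.6 to 133.2 ± 3.23 FPKM (limma adjusted p = 0.004673). Ctsa rose from 10.01 ± 1.6 to 16.3 ± 1.96 FPKM (0.02833), a call lost under median-ratio scaling (0.0888). Leaving out Vehicle replicate 1 (0.09687) or 2 (0.1173), or KIRA6 replicate 2 (0.106) or 3 (0.0936), also ended it. Median-ratio scaling called 1 gene of the list lower, Ctsl. The replicate block and the fit without Vehicle replicate 3 also called Ctsl lower. With library weights 3 were lower, Ctsl included, and 5 higher. Without Vehicle replicate 3 and KIRA6 replicate 1 together 3 were lower, Ctsl included, and 3 higher.

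In the main test, surface partners of the metalloproteinases were lower where they were called. Of 7 tested genes for activation and surface binding 3 fell and 0 rose by limma (median log2 fold change −0.43). Over all tested genes 7.98% were called lower and 15.6% higher. At an unadjusted p under 0.05, 0 were higher, and limma-voom called 0 higher. Library weights called 1 gene of the list higher, Furin, and 6 lower. Without Vehicle replicate 3 and KIRA6 replicate 1 together, Furin was again the 1 called higher, and 3 were called lower. Cd44, a hyaluronan receptor that can hold metalloproteinases at the membrane, was at 46.4, 45.4 and 92.5 FPKM in vehicle and 8.55, 11.5 and 15.99 FPKM with KIRA6, 5.12-fold lower on the means (limma adjusted p = 0.005347). The syndecan genes Sdc4 and Sdc1 fell from 136.6 ± 20.2 to 78.3 ± 12.04 FPKM (0.02159) and from 97.7 ± 7.22 to 68.1 ± 3.95 FPKM (0.03011). Of the 3, Cd44 alone was called when Vehicle replicate 1 or 2, or KIRA6 replicate 2 or 3, was left out, where Sdc4 had 0.0768, 0.09411, 0.09663 and 0.07376 and Sdc1 had 0.09408, 0.1417, 0.1229 and 0.087. Without KIRA6 replicate 1 the call for Sdc1 ended (0.05025).

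Factors that are known to bind AP-1, ETS or RUNX sites were mixed. Of 17 tested genes, RUNX factors included, 4 rose and 6 fell, with a median log2 fold change of −0.03. Among all tested genes 15.6% were called higher and 7.98% lower. The AP-1 subunit Jun fell from 32.06 ± 5.01 to 13.8 ± 1.57 FPKM (limma adjusted p = 0.004008), and Fosl1, whose product pairs with JUN proteins, was at 10.6, 9.21 and 23.5 FPKM in vehicle and 1.18, 1.49 and 1.07 with KIRA6 (limma adjusted p = 0.002387). The ETS genes Etv5 and Etv4, of the PEA3 group, fell by 4.30 and 2.58 on the log2 scale, and the epithelial ETS gene Elf3 rose by 2.26. Fosb and Etv1 also fell, and Junb, Atf3 and Fosl2 rose. Without KIRA6 replicate 2 or KIRA6 replicate 3 the number that fell was 4, with Fosb and Etv1 not called. The number that rose was 6 without Vehicle replicate 3. It was 3, with Fosl2 not called, under median-ratio scaling and when Vehicle replicate 1 or 2, or KIRA6 replicate 2 or 3, was left out.

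For each of the 7 tested genes the 2 genes of most similar profile were found among 10544 other genes whose mean was 1 FPKM or more. Likeness was the root mean square difference of log2(FPKM + 0.5), centred on the mean of each gene, over the 6 libraries. Plaur was closest to Hbegf (0.11) and Kcnk2 (0.199), and Hbegf, an EGF receptor ligand gene, went from 31.9 ± 3.66 to 4.18 ± 0.438 FPKM. Plau was closest to Gart (0.0324) and Tnfaip3 (0.0495). Mmp3 was closest to Exoc3l4 (0.0633) and Rrs1 (0.0814), and Mmp10 to Exoc3l4 (0.115) and Phlda2 (0.119), so Exoc3l4 was nearest to both stromelysin genes. Timp1 was closest to Tubb6 (0.0341) and Btbd19 (0.0398). Mmp9 was closest to Adamtsl3 (0.0664) and Kirrel (0.067), and Mmp14 to Coro7 (0.0495) and Rtn3 (0.0582). None of those last 4 was called by limma (adjusted p = 0.3281, 0.3942, 0.2413 and 0.2034). They were matched to 2 uncalled genes over the same 6 libraries, so this follows from the match and is no separate result.

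**Figure D5:**
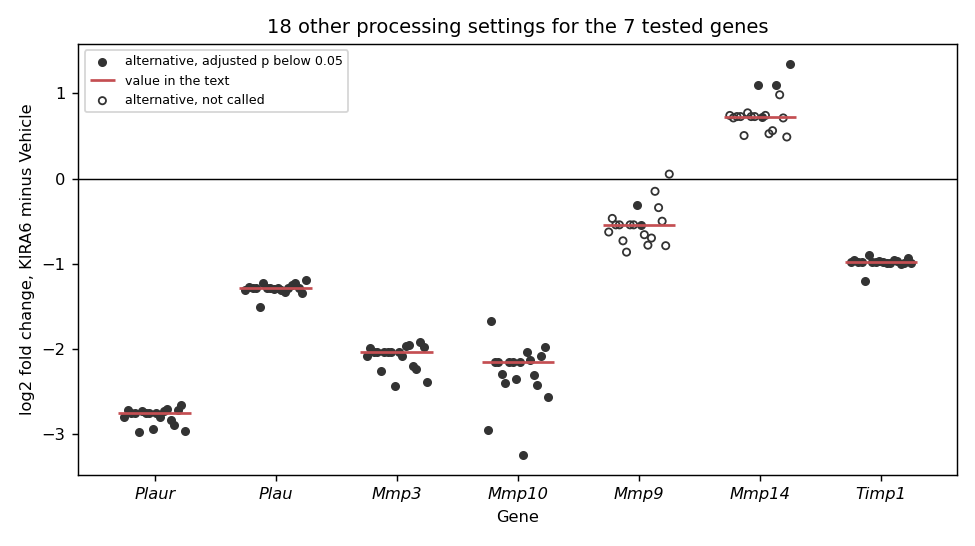
Log2 fold change of the 7 tested genes under 18 other processing settings (filled: adjusted p below 0.05; open: not called), with the value of the text as a red line. Plaur, Plau, Mmp3, Mmp10 and Timp1 stay below 0 and called in all 18, Mmp9 crosses 0 once, and Mmp14 stays above 0 and is called in 4.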

How the data were processed

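The 6 libraries held RNA of 4T1 cells. The authors deposited FPKM per gene with 2 decimals. Per the labels' protocols RNA was taken with TRIzol, and per the submitters' processing notes the tools were HISAT2 2.2.1, cutadapt 1.9.1, DESeq2 1.34.0 and HTSeq 0.6.1, with build GRCm39. The strand setting is not given in the sources used here.

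FPKM values were analysed as log2(FPKM + 0.5) with limma 3.58.1 in R 4.3.3 (trend and robust), over genes with a mean of 0.5 FPKM or more, with Benjamini-Hochberg adjustment over all tested genes and a threshold of 0.05. Ratios were compared with exact permutation tests. Depth was estimated from the steps of low FPKM values, whole within 0.1 fragment. Limits of 3 fragments cover counting error only. The fit was tested on simulated data with independent noise, which lacked the shared axis of the real libraries. It recovered 4% of 1.5-fold, 34% of 2-fold, 84% of 4-fold and 94% of 8-fold changes, with 5 false calls among 113. Small changes could therefore be missed.

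The 9 genes and the lists were chosen with earlier results of these data known. Named were the 9 genes, up to 4 called genes per list by smallest p, Mmp2, Timp2, Plat, Fosl1 and Jun, the nearest profiles and the neighbours in the genome. Genes that make up a count of 5 or fewer, and Mmp15, Mmp1a, Plg and Ctsl, were named after their values were seen. The 18 alternatives changed the pseudocount, filter, scaling, empirical Bayes step, weights, replicate block, unit and libraries. Protein sequences were not used here, and 1 further preset gene is not reported here.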

Additional observations from a re-analysis of the deposited data

How the results depend on the processing

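The calls for Plaur, Plau, Mmp3, Mmp10 and Timp1 held in all 18 alternatives. The genes called higher, 1843 in the text, numbered 1223 with median-ratio scaling, 1132 with quantile normalization, 6046 with library weights, and 817 to 2064 with 1 library left out. The genes called lower, 940 in the text, numbered 1556 with median-ratio scaling, 3957 with library weights, and 394 to 1328 with 1 library left out. The lowest counts came without KIRA6 replicate 2 and the highest without Vehicle replicate 3. Without Vehicle replicate 3 and KIRA6 replicate 1 together 4227 were called higher and 2383 lower. Of the 9 genes, 0 to 1 was called higher with 1 library left out. The 1 was Mmp14, without Vehicle replicate 3, and it was also the 1 with library weights and the 1 without both libraries named above. Mmp9 had a log2 fold change of 0.053 without both, and was called lower with library weights. Plat had −0.10 with median-ratio scaling, −0.31 with quantile normalization, −0.12 with library weights, and −0.049 to 0.096 with 1 library left out. The cause was not tested. The library weights ran from 0.1038 to 34.14, and their estimate stopped short of its tolerance. Of the other rechecks of single genes outside the 9, 428 kept direction and call, 48 lost a call and 3 gained one.

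Whether the replicate numbers pair the libraries was not settled. The deviations of same-numbered libraries correlated at 0.762, −0.469 and 0.738, and 4 of 6 libraries correlated best with their own number. With 3 libraries per group and 1 axis holding 81.3% of the within-group variance, these values cannot decide it. With the replicate block 2883 genes were called higher and 1540 lower, 1 of the 9 genes (Mmp14) was called higher, and Mmp9 was called lower.

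Depth limits Mmp13, Timp3, the KIRA6 libraries of Mmp10 and Serpinb2 and the vehicle libraries of Serpinb8, which rest on few fragments.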
